A study of Mus musculus with 37 samples.

Results

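Wfs1 and 9 genes of the response to endoplasmic reticulum (ER) stress, Hspa5, Hsp90b1, Ddit3, Atf4, Atf6, Xbp1, Ern1, Eif2ak3 and Herpud1, were followed across 4 genotypes of mouse cortex. Every probe set annotated to 1 of these 10 genes was taken, which gave 28 of 45037 probe sets for 10 of 18193 genes. Wfs1 was chosen by its measured fall in R6/2 against WT cortex on these same arrays, so the R6/2 and WT values of the 10 genes are given as a description without a test. The effect of the transgene was tested in the arrays which that choice did not use, Dble::R6/2 against Hdac4HET. No filter on dim signals was applied, and all 28 probe sets were tested.

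Cortex was taken at 9 wk of age from mice of a mixed CBA and C57Bl/6 background, and 1 Affymetrix array was run per mouse. There were 9 WT mice, 9 Hdac4HET mice with 1 null allele of Hdac4, 9 R6/2 mice carrying a transgene for the mutated exon 1 fragment of huntingtin, and 10 Dble::R6/2 mice carrying both. The mice came from crosses of R6/2 males to Hdac4HET females, and the null allele was made on another strain background. R6/2 mice express the fragment from a transgene in addition to their own intact huntingtin gene. Values are log2 expression values, so a difference of 1 is a 2-fold difference in signal.

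The ER folds secreted and membrane proteins, and a surplus of unfolded protein there starts the unfolded protein response. It has 3 sensors in the ER membrane: PERK (gene Eif2ak3), which slows translation and raises ATF4; IRE1 (Ern1), which splices Xbp1 mRNA; and ATF6, which is cut to release a transcription factor. Their targets include the ER chaperones Hspa5 (BiP) and Hsp90b1 (GRP94), the degradation factor Herpud1 and the pro-apoptotic factor Ddit3 (CHOP). Wfs1 encodes wolframin, an ER membrane protein abundant in neurons of the upper cortical layers, hippocampus and amygdala, and its loss causes Wolfram syndrome.

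Wfs1 was the gene of the 10 with the largest difference between transgenic and non-transgenic cortex on its brightest probe set, and it was lower in both mouse lines that carried the transgene. In the test of Dble::R6/2 against Hdac4HET it fell by 0.88 on the log2 scale, and Atf6 and Ddit3 also fell on every probe set. Eif2ak3 and Ern1 rose by 0.16 and 0.18 on their brightest probe sets. The brightest probe sets of the chaperones Hspa5 and Hsp90b1 had differences of 0.03 and -0.01, which did not pass. The other probe set of Hsp90b1 fell by 0.58. With a single null Hdac4 allele, limma called no member probe set, with or without the transgene, and other fits called 1 of Hspa5 with it.

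The arrays were alike in scale, with medians of 6.16 to 6.21, and arrays of 1 genotype correlated at 0.993 to 0.998. Hdac4 itself ran from 8.28 to 8.64 in WT and from 8.31 to 8.55 in R6/2, against 7.80 to 8.02 in Hdac4HET and 7.70 to 7.98 in Dble::R6/2 cortex. Of the 37 arrays, 6 went against their labelled sex by Xist and the 3 Y-linked genes measured, namely WT mouse 9, Hdac4HET mice 1, 5 and 9, and Dble::R6/2 mice 1 and 9. Both kinds of signal were high in Hdac4HET mice 5 and 9. The mean of 23 of 25 olfactory bulb markers was above that of every WT array on 7 arrays, Hdac4HET mice 1, 4, 5, 6, 7 and 9 and Dble::R6/2 mouse 10. This mean lay between 5.81 and 6.11 in WT and 5.74 and 6.03 in R6/2, but reached 7.68 in Hdac4HET and 6.55 in Dble::R6/2 cortex. The 10 arrays in either set were kept, and the results for the members are also given without them. Of these 23 markers, 6 were under the 25th percentile of all values in WT and 3 in Hdac4HET cortex. Of the markers of cortex, 7 of 8 upper-layer genes had a mean of 11.02 in WT, while 4 of 7 hippocampal markers were under the 25th percentile of all values in every genotype.

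Promoter sequence bears on this pathway because ATF6 and XBP1 act through short elements upstream of the chaperone genes. The stretches printed here come from RefSeq promoters on build GRCm38.p6, are written 5′ to 3′ on the strand of the gene, and have the matched element in capitals. They show the members with an exact match to an element and, for contrast, Wfs1, in which no exact match was found. The first is Hspa5 at chr2:34771970-34772089 on the plus strand, from 120 to 1 bases before the start of the gene. The others are Hsp90b1 at chr10:86705525-86705664 on the minus strand, Herpud1 at chr8:94386309-94386428 on the plus strand and Wfs1 at chr5:36988983-36989102 on the minus strand.
Hspa5: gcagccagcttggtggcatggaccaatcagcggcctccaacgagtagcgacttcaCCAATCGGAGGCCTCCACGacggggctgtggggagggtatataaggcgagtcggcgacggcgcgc
Hsp90b1: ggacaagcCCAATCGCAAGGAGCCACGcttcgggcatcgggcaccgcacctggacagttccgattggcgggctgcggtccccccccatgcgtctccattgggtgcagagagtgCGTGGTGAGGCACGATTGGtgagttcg
Herpud1: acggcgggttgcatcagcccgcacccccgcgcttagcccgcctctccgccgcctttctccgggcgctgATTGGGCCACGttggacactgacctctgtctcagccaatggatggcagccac
Wfs1: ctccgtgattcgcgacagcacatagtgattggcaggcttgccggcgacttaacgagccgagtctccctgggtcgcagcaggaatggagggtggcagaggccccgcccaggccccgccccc

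The elements were searched on both strands of 300 bases per promoter, from 250 before to 50 after the start, in 32851 promoters of 27025 genes. The ER stress element (ERSE), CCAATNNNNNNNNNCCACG, was found in 39 promoters, 0.119% of them. It stood 65 to 47 bases before the start of Hspa5, and Hsp90b1 held it on the strand of the gene at 212 to 194 and on the other strand at 107 to 89 bases before its start. ERSE-II, ATTGGNCCACG, was found in 0.0365% of promoters, and stood 52 to 42 bases before the start of Herpud1. The core of the unfolded protein response element, TGACGTGG, was in 0.676% and the ATF4 composite element, TGATGCAAT, in 0.192% of promoters. Neither was found in the promoter of a member, and the matches in the members did not overlap. A promoter was listed for 9 of the 10 members, and for Atf6 none was printed. A match is a description of the letters and not of a bound site. Variants of the letters were not searched, so the lack of a match does not show that an element is absent.

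Wfs1 was measured by 1 probe set, 1448411_at, and the gene lies at chr5:36966104-36988982. Its level ran from 10.15 to 10.44 in the 9 WT mice, with a median of 10.35, and from 10.09 to 10.41 in the 9 Hdac4HET mice, with a median of 10.33. In the 9 R6/2 mice it ran from 9.02 to 9.58, with a median of 9.41, and in the 10 Dble::R6/2 mice from 9.16 to 9.74, with a median of 9.39. Every mouse with the transgene was below every mouse without it, and within each of the pairs of genotypes the values overlapped. The description of R6/2 against WT was a log2 difference of -0.94 (SE 0.07), a ratio of 0.52. In the tested comparison, Dble::R6/2 against Hdac4HET, the log2 change was -0.88 (SE 0.07, adjusted p = 1.35e-13 in limma), a ratio of 0.543.

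**Figure D1:**
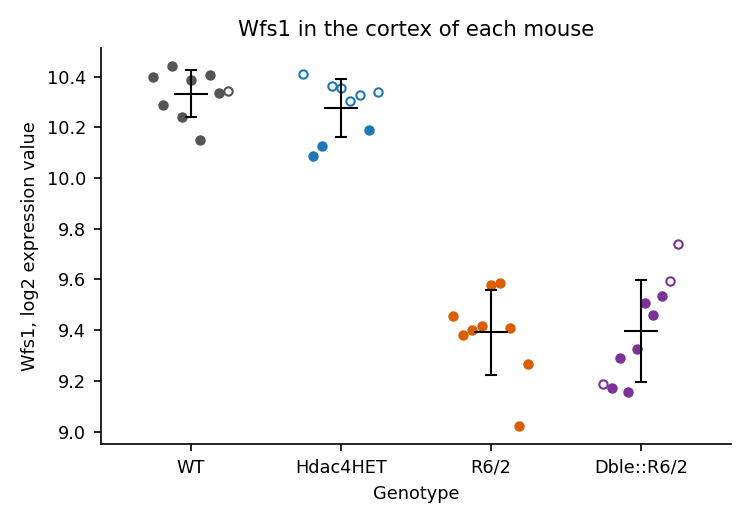
Log2 expression value of Wfs1 (vertical axis) in each mouse of the 4 genotypes, with bars for the mean and SD. Open circles are arrays with raised olfactory bulb markers or against their sex label. The R6/2 and Dble::R6/2 mice lie between 9.02 and 9.74, and the WT and Hdac4HET mice between 10.09 and 10.44.

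The order of the Wfs1 levels was therefore WT and Hdac4HET above R6/2 and Dble::R6/2, and neighbours within each pair did not differ beyond their spread. Hdac4HET against WT gave a log2 change of -0.06 (95% confidence interval -0.19 to 0.08, adjusted p = 0.726). Dble::R6/2 against R6/2 gave 0.01 (-0.13 to 0.14, adjusted p = 0.981). The interaction, the difference between the transgene effects with and without the null allele, was 0.06 (-0.13 to 0.25, adjusted p = 0.762), and it contains the R6/2 minus WT difference by which Wfs1 was chosen.

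Within Hdac4HET, Wfs1 was higher on the arrays with raised bulb markers. It lay between 10.30 and 10.41 on those 6 arrays and between 10.09 and 10.19 on the other 3, and the only such Dble::R6/2 array had the highest value of its genotype, 9.74. Without these arrays the Hdac4HET against WT difference was -0.20 (SE 0.09, adjusted p = 0.561) and the Dble::R6/2 against Hdac4HET change was -0.78 (SE 0.09, adjusted p = 9.89e-08). Without the arrays against their sex label that change was -0.83 (adjusted p = 7.03e-10). The part of the bulb signal in these Wfs1 levels was not tested.

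Mean levels of most lists of cell type markers moved with the transgene too. The mean of the upper-layer markers (7 of 8 measured) ran from 10.93 to 11.14 in WT and 10.95 to 11.15 in Hdac4HET, against 10.40 to 10.67 in R6/2 and 10.42 to 10.62 in Dble::R6/2 cortex. The mean of 13 of 15 markers of striatal projection neurons was 9.68 in WT, 9.96 in Hdac4HET, 8.95 in R6/2 and 8.95 in Dble::R6/2. All 9 pan-neuronal markers were measured, with means of 12.14, 12.17, 11.93 and 11.96 in the same order. Deep-layer markers (7 of 8) had means of 9.77, 9.83, 9.51 and 9.48, and astrocyte markers (9 of 9) 10.74, 10.73, 10.52 and 10.49. Oligodendrocyte markers (8 of 9) had 11.36, 11.38, 11.15 and 11.18, microglial markers (8 of 8) 8.86, 8.81, 8.72 and 8.67, and endothelial and choroid plexus markers (8 of 8) 7.66, 7.43, 7.73 and 7.61. The neuronal, astrocyte, oligodendrocyte and microglial means were thus lower in both transgenic groups, as was Wfs1. With the mean of each genotype taken out, Pearson's r of Wfs1 was -0.52 with the upper-layer and -0.62 with the oligodendrocyte mean. This r was highest for the olfactory bulb markers, at 0.50, and was 0.46 for pan-neuronal, 0.34 for striatal and 0.20 for hippocampal markers. For deep-layer, astrocyte and microglial markers it was 0.12, 0.10 and 0.11. In tissue RNA, fewer cells of a type and less RNA per cell cannot be told apart, and the part of cell composition in the Wfs1 difference was not tested.

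The other genes whose levels were most like Wfs1 over the 37 arrays stood lower in both transgenic groups. This follows from the way they were chosen, since Wfs1 itself has that step, and it is given as a description. Pearson's r, over arrays that share the step between genotypes, was 0.959 for Gpr83, 0.958 for Tesc, 0.958 for Ttyh1, 0.958 for Sst (somatostatin) and 0.958 for Arpp21. Their differences of Dble::R6/2 against Hdac4HET were -1.05, -0.71, -0.49, -0.86 and -0.84. With the mean of each genotype taken out, another set of genes was most like Wfs1, namely Vat1l with 0.866, Tunar with 0.857, Nrp2 with 0.855, Htr2c with 0.852 and Cdh4 with 0.848. Htr2c, a serotonin receptor, was higher by 0.31 in Dble::R6/2 than in Hdac4HET cortex, but lower by 0.09 in R6/2 than in WT. The arrays with raised bulb markers are part of this within-genotype spread.

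The 3 sensors did not move together. Eif2ak3 and Ern1 rose on the brightest probe set, while all 3 probe sets of Atf6 fell.

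Eif2ak3, the gene of PERK at chr6:70844484-70905241, had a level of 8.84 to 9.04 in WT (median 8.94) and 8.96 to 9.11 in Hdac4HET (median 9.07) on its brightest probe set, 1449278_at. It was 9.14 to 9.34 in R6/2 (median 9.31) and 9.15 to 9.31 in Dble::R6/2 cortex (median 9.22). As for Wfs1, the groups with and without the transgene did not overlap, here with the transgenic mice on top. The change in Dble::R6/2 against Hdac4HET was 0.16 (SE 0.03, adjusted p = 2.55e-05), a ratio of 1.12, and R6/2 against WT had a difference of 0.32 (SE 0.03). The interaction was -0.16 (95% confidence interval -0.24 to -0.07, adjusted p = 0.0542), close to the threshold, and it passed when only probe sets above the median level were tested (adjusted p = 0.0392) or arrays were weighted by quality (0.0311). It did not pass without the arrays with raised bulb markers (adjusted p = 0.316), those against their sex label (0.192) or both (0.408). It also passed without any 1 of WT mice 6, 7 and 9, R6/2 mouse 4 or Dble::R6/2 mouse 6, with adjusted p of 0.0246 to 0.0494. Hdac4HET lay 0.10 above WT (adjusted p = 0.0992). The other probe sets of the gene were dim, with medians of 4.29 to 4.40 and 3.08 to 3.15, and changes of 0.01 and 0.02.

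Ern1, the gene of IRE1 at chr11:106397620-106487796, was read by 5 probe sets. The brightest, 1437119_at, ran from 7.69 to 7.99 in WT (median 7.77), 7.71 to 7.999 in Hdac4HET (median 7.87), 7.98 to 8.18 in R6/2 (median 8.03) and 7.93 to 8.14 in Dble::R6/2 (median 8.05). The transgenic groups were higher with an overlap at 1 end. The change in Dble::R6/2 against Hdac4HET was 0.18 (SE 0.04, adjusted p = 0.00037), and R6/2 against WT had a difference of 0.24 (SE 0.04). The other 4 probe sets had changes of -0.06 to 0.03 and none passed, so the rise rests on 1 probe set.

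Atf6, the gene of the third sensor at chr1:170704457-170868585, was lower with the transgene on each of its probe sets. The brightest, 1435444_at, ran from 8.94 to 9.21 in WT (median 9.07), 8.89 to 9.36 in Hdac4HET (median 9.13), 8.69 to 9.08 in R6/2 (median 8.80) and 8.72 to 8.95 in Dble::R6/2 (median 8.79). Its change in Dble::R6/2 against Hdac4HET was -0.30 (SE 0.05, adjusted p = 6.52e-06), and the ranges overlapped. The second probe set changed by -0.32 (SE 0.06, adjusted p = 2.18e-05). The dimmest, at 6.63 to 7.28 in Hdac4HET and 6.03 to 6.72 in Dble::R6/2, changed by -0.59 (SE 0.09, adjusted p = 8.02e-07). The differences of R6/2 against WT were -0.23, -0.26 and -0.29.

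**Figure D2:**
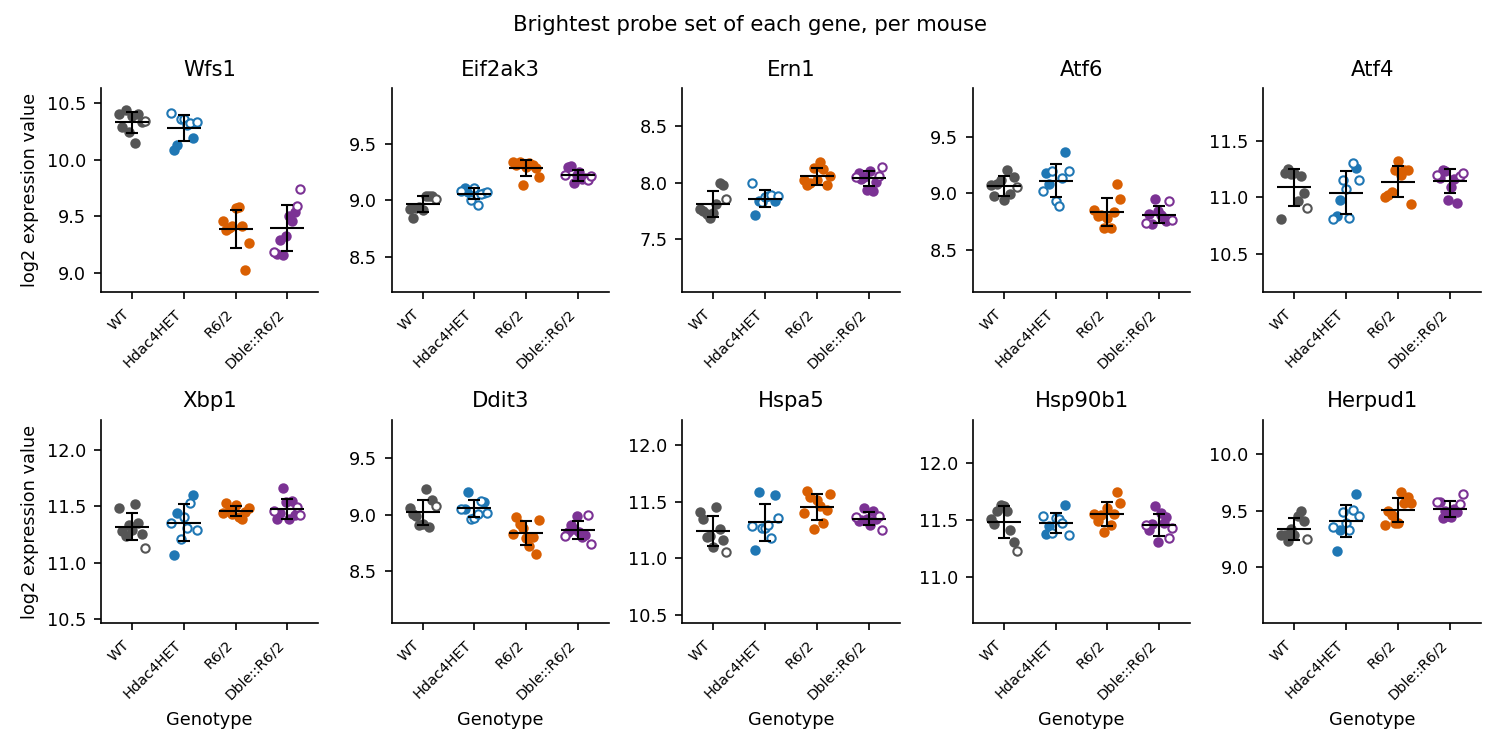
Log2 expression value of the brightest probe set of each of the 10 genes (vertical axes, each spanning the same width) in each mouse of the 4 genotypes, with the mean and SD. Open circles are arrays with raised bulb markers or against their sex label. Wfs1 shows the widest step between the genotypes without and with the transgene, Atf6 and Ddit3 smaller steps down, and Eif2ak3 and Ern1 steps up.

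Of the transcription factors downstream of the sensors, Ddit3 fell, Atf4 did not pass on any probe set, and Xbp1 rose on 1 of 4. Ddit3, which encodes CHOP at chr10:127290793-127296291, ran on its brighter probe set from 8.90 to 9.23 in WT (median 9.01) and 8.97 to 9.21 in Hdac4HET (median 9.05). In R6/2 it ran from 8.65 to 8.98 (median 8.83) and in Dble::R6/2 from 8.75 to 9.00 (median 8.85). The medians of the transgenic groups lay below every mouse without the transgene. The change in Dble::R6/2 against Hdac4HET was -0.19 (SE 0.04, adjusted p = 0.000537). The dimmer probe set, at 6.04 to 6.71 in Hdac4HET and 5.72 to 6.29 in Dble::R6/2, changed by -0.43 (SE 0.09, adjusted p = 0.000311). In R6/2 against WT the differences were -0.19 and -0.28.

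Atf4, the factor made when PERK is active, lies at chr15:80255184-80257545. Its brightest probe set had medians of 11.19 in WT, 11.07 in Hdac4HET, 11.19 in R6/2 and 11.18 in Dble::R6/2, within an overall range of 10.81 to 11.32. The groups overlapped over nearly all of this range, and the change in Dble::R6/2 against Hdac4HET was 0.10 (95% confidence interval -0.03 to 0.23, adjusted p = 0.243). Its other probe sets changed by 0.08 and -0.03. ATF4 protein is controlled mainly at translation, which these arrays did not measure.

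Xbp1, at chr11:5520641-5525993, is spliced by IRE1, and these probe sets were not used to separate the spliced from the unspliced mRNA. The brightest ran from 11.13 to 11.52 in WT (median 11.29) and 11.07 to 11.60 in Hdac4HET (median 11.35), against 11.39 to 11.53 in R6/2 (median 11.45) and 11.38 to 11.66 in Dble::R6/2 (median 11.45). Its change in Dble::R6/2 against Hdac4HET was 0.12 (SE 0.05, adjusted p = 0.0521), just outside the threshold. The second probe set rose by 0.14 (SE 0.05, adjusted p = 0.0252), and this was lost without the arrays with raised bulb markers (0.12, adjusted p = 0.33) or those against their sex label (0.14, adjusted p = 0.089). The other probe sets changed by 0.02 and 0.02.

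The chaperones and the ER membrane proteins gave no single direction. Hspa5, which encodes the main ER chaperone BiP, lies at chr2:34772090-34776529 and carries an ERSE in its promoter. On its brightest probe set it ran from 11.06 to 11.46 in WT (median 11.20), 11.07 to 11.59 in Hdac4HET (median 11.29), 11.26 to 11.59 in R6/2 (median 11.46) and 11.25 to 11.45 in Dble::R6/2 (median 11.35). All 4 ranges overlapped. R6/2 against WT had differences of 0.21, 0.31 and -0.04 on the 3 probe sets, whereas Dble::R6/2 against Hdac4HET had 0.03, 0.07 and 0.01, with adjusted p of 0.69, 0.336 and 0.932. The second probe set, 1427464_s_at, had a difference of -0.18 in Dble::R6/2 against R6/2 (95% confidence interval -0.30 to -0.07, adjusted p = 0.0792), and its interaction was -0.24 (adjusted p = 0.111). The adjusted p of this difference was 0.0493 in the methods' t-test, 0.0323 with only the genotypes compared and 0.0447 with array quality weights. It was 0.206 without the arrays with raised bulb markers, 0.185 without those against their sex label and 0.377 without both.

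Hsp90b1, which encodes GRP94 at chr10:86690841-86705444, was read differently by its probe sets. The brighter, 1415889_a_at, ran from 11.22 to 11.63 in WT (median 11.51), 11.37 to 11.63 in Hdac4HET (median 11.48), 11.40 to 11.75 in R6/2 (median 11.55) and 11.30 to 11.63 in Dble::R6/2 (median 11.46), with a change of -0.01 (95% confidence interval -0.11 to 0.08, adjusted p = 0.862). The other, 1438040_a_at, ran from 10.72 to 11.15 in Hdac4HET (median 11.03) and 9.95 to 10.77 in Dble::R6/2 (median 10.40), and fell by 0.58 (SE 0.08, adjusted p = 5.87e-07). The probe sets thus disagreed for this gene, and which transcripts each detects was not examined.

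Herpud1, a partner of the ER degradation complex at chr8:94386429-94395371 with ERSE-II in its promoter, had 2 probe sets. The brighter ran from 9.24 to 9.50 in WT (median 9.29), 9.15 to 9.65 in Hdac4HET (median 9.39), 9.38 to 9.66 in R6/2 (median 9.50) and 9.43 to 9.65 in Dble::R6/2 (median 9.51). Its change in Dble::R6/2 against Hdac4HET was 0.11 (SE 0.05, adjusted p = 0.0596). The other rose by 0.13 (SE 0.05, adjusted p = 0.0354), which was lost without the arrays with raised bulb markers (0.17, adjusted p = 0.11) or against their sex label (0.11, adjusted p = 0.212).

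**Figure D3:**
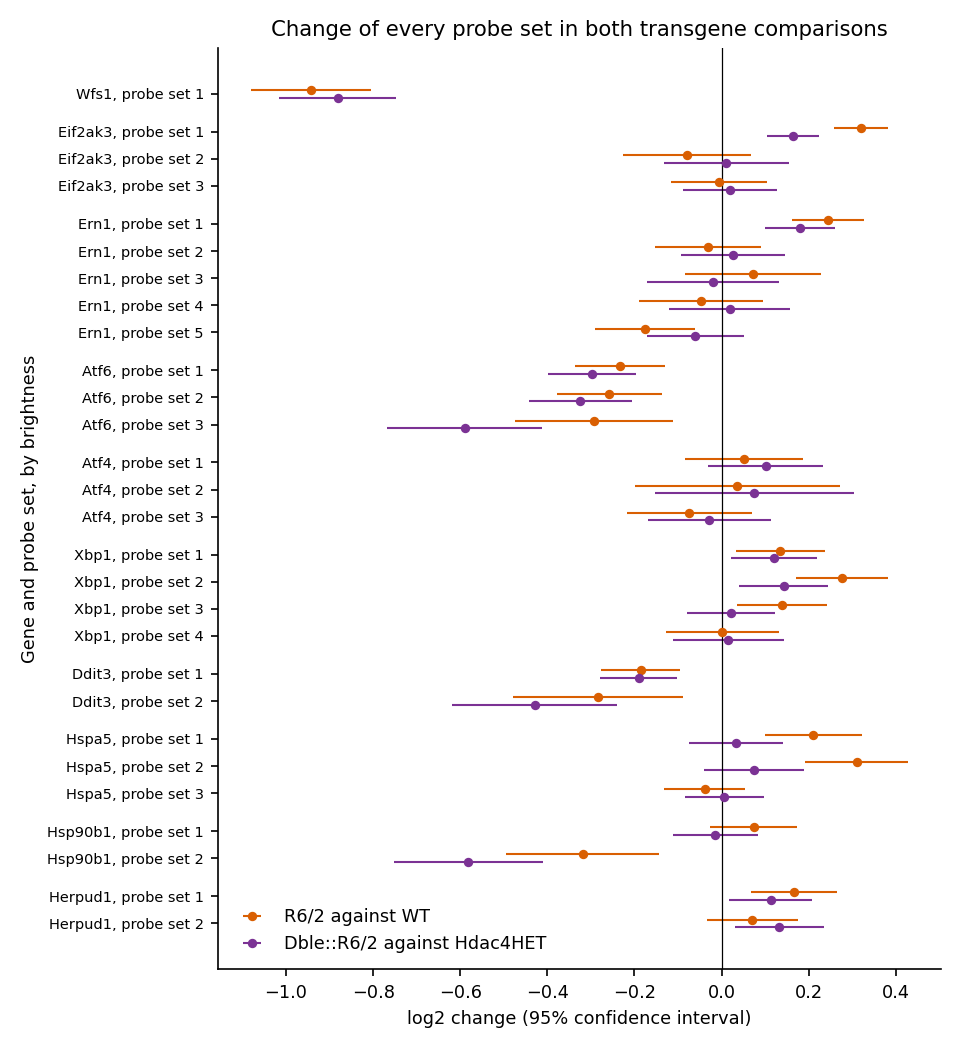
Log2 change (horizontal axis) with its 95% confidence interval for each of the 28 probe sets in R6/2 against WT, which is a description, and in Dble::R6/2 against Hdac4HET, which was tested. Probe sets are ordered within a gene by brightness. Wfs1 stands apart at -0.94 and -0.88, all probe sets of Atf6 and Ddit3 lie left of 0, and the probe sets of Hsp90b1 disagree.

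Counted over the 28 probe sets, Dble::R6/2 against Hdac4HET gave 11 with an adjusted p under 0.05, 4 higher and 7 lower. Over all probe sets, 21.2% were higher and 15.6% lower. The share of member probe sets that fell was above, and the share that rose below, that of the array. The 7 lower belong to Wfs1, Atf6, Ddit3 and Hsp90b1, and probe sets of 1 gene are not independent. Past a change of 1.3-fold as well were 4 member probe sets, all lower, those of Wfs1, Atf6, Ddit3 and Hsp90b1, where 2.02% of all probe sets were higher and 5.07% lower. By brightest probe set, 2 of the 10 genes rose (28.4% of all genes) and 3 fell (14.1%). The median change was 0.02 over the 28 probe sets and 0.02 over all probe sets, and 0.07 over the 10 brightest and 0.04 over all genes. These counts describe 10 genes of which 1 was chosen for its fall in the other transgene comparison.

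In Dble::R6/2 against Hdac4HET the groups did not overlap for 2 member probe sets. That of Eif2ak3 was higher, as for 5.77% of all probe sets, and that of Wfs1 lower, as for 3.55%. In R6/2 against WT, from which nothing is read here since Wfs1 was chosen on it, the difference was above 0 for 14 member probe sets and below 0 for 14. By brightest probe set it was above 0 for 7 genes and below 0 for 3, the latter being Wfs1, Atf6 and Ddit3.

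The null Hdac4 allele gave no member past the threshold in limma. In Hdac4HET against WT, limma called 0 of 28 at an adjusted p under 0.05, beside 1.43% of all probe sets. The methods' t-test also called 0, and 2 had an unadjusted p under 0.05 in limma. In Dble::R6/2 against R6/2, limma called 0 at that threshold, with a lowest adjusted p of 0.0792, beside 1.99% of all probe sets. At an unadjusted p under 0.05 there were 5 in limma. The methods' t-test called 1 there, the second probe set of Hspa5. The interaction gave 0 in limma at that threshold, beside 0.968% of all probe sets, and 5 had an unadjusted p under 0.05. The share of all probe sets at an unadjusted p was not counted.

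Leaving out the arrays set apart cost few of the calls in Dble::R6/2 against Hdac4HET. Without the arrays with raised bulb markers, 9 of the 28 probe sets passed, 2 higher and 7 lower, and the counts were the same without the arrays against their sex label. Without both sets, a choice made after the data were seen, 9 again passed. The calls lost were those of the second probe sets of Xbp1 and Herpud1, each time. Without the bulb arrays the other 2 probe sets of Atf6 also moved past 1.3-fold, at -0.39 and -0.38.

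**Figure D4:**
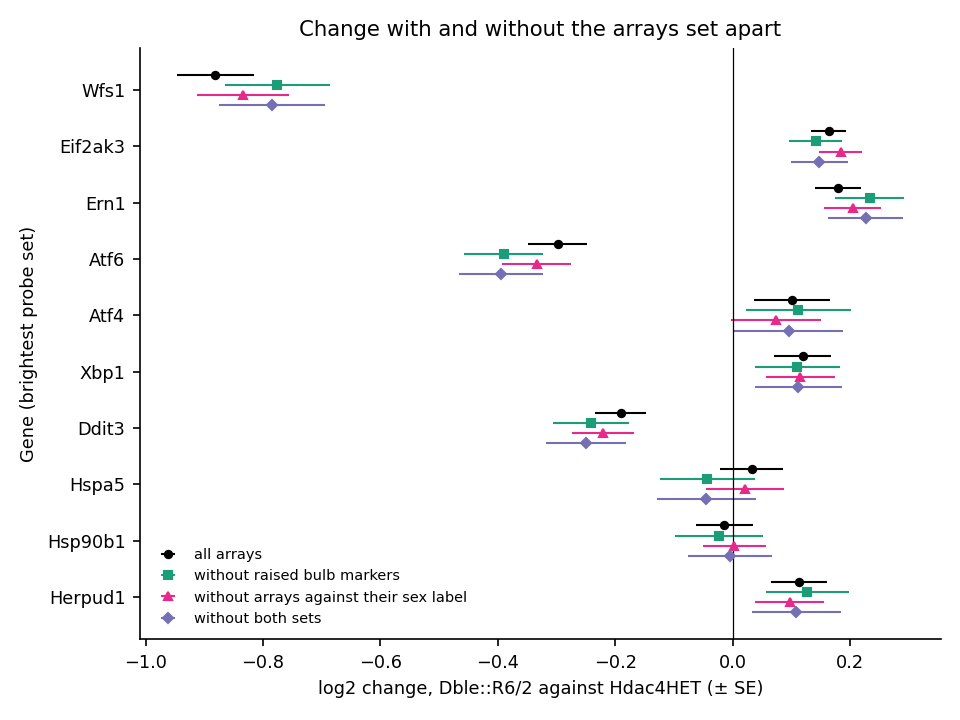
Log2 change of the brightest probe set of each gene in Dble::R6/2 against Hdac4HET, with its SE, over all arrays and with the arrays set apart left out. Wfs1 stays between -0.88 and -0.78, and the changes of Eif2ak3, Ern1, Atf6 and Ddit3 keep their sign.

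The rest of the pathway was read from 5 lists of 84 genes, of which 79 were measured, each by its brightest probe set. In Dble::R6/2 against Hdac4HET 36 rose and 11 fell, and in R6/2 against WT 36 rose and 9 fell. Of the 79, 28 rose in both comparisons, 6 fell in both, and 0 passed in opposite directions, where over all genes 21.7% rose in both, 9.88% fell in both and 0.242% passed in opposite directions. Over all genes 28.4% rose and 14.1% fell in the former, and 28.1% and 18.4% in the latter. The 79 genes were not matched to all genes in signal level, so these shares are set side by side as a description. The median change was 0.09 in Dble::R6/2 against Hdac4HET, beside 0.04 over all genes, and 0.08 in R6/2 against WT, beside 0.00. Without the arrays with raised bulb markers, which leaves 3 Hdac4HET mice, 23 rose and 6 fell in Dble::R6/2 against Hdac4HET. Past 1.3-fold were only Derl1 and Sdf2l1 in Dble::R6/2 against Hdac4HET and Edem3 in R6/2 against WT. The genes of each list given below with an SE were picked by size of change or p in these same comparisons. Their adjusted p is therefore no separate support for the list. The shares over all genes given here also stand beside the counts of each list.

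ER-associated degradation, which returns misfolded proteins to the cytosol, had 10 of 18 genes higher and 2 lower in Dble::R6/2 against Hdac4HET, and 11 higher and 3 lower in R6/2 against WT. Edem3, which trims the sugars of misfolded glycoproteins, ran from 9.46 to 9.79 in Hdac4HET and 9.87 to 10.00 in Dble::R6/2 cortex and rose by 0.30 (SE 0.03, adjusted p = 1.17e-09). Derl1, a channel component of the same route, ran from 10.44 to 10.74 and from 10.87 to 11.04, and rose by 0.38 (SE 0.04, adjusted p = 1.08e-09). In R6/2 against WT, Edem3 rose by 0.40 and Derl1 by 0.29. Both genes separated the transgenic from the other mice within each Hdac4 genotype, except that 1 end of the Derl1 ranges in WT and R6/2 met at 10.80. The genes that fell, named after their values were seen, were Derl3 (-0.20) and Ube2g2 (-0.17) in Dble::R6/2 against Hdac4HET, and these with Edem2 (-0.27) in R6/2 against WT.

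ER chaperones and folding enzymes, beside the members, had 9 of 20 genes higher and 1 lower in Dble::R6/2 against Hdac4HET, and 10 higher and 2 lower in R6/2 against WT. Sdf2l1, a cofactor of BiP, went the other way from most of the list. It ran from 7.89 to 8.70 in Hdac4HET and from 7.51 to 7.96 in Dble::R6/2 cortex, and fell by 0.41 (SE 0.08, adjusted p = 4.51e-05), and it fell by 0.31 in R6/2 against WT, where Sil1, a nucleotide exchange factor of BiP, was the other gene to fall (-0.16).

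In the PERK and ATF4 branch, 7 of 22 genes rose and 0 fell in R6/2 against WT, beside 28.1% and 18.4% of all genes. The median difference there was 0.0003, beside 0.0007 over all genes. In Dble::R6/2 against Hdac4HET 9 rose and 3 fell, beside 28.4% and 14.1% of all genes, with a median of 0.09 beside 0.04. Eif2ak1, another kinase of the same translation factor as PERK, rose by 0.30 (SE 0.03, adjusted p = 4.11e-09) from a range of 8.42 to 8.67 to one of 8.74 to 8.91. Ppp1r15b, a subunit of the phosphatase that reverses that phosphorylation, rose by 0.16 (SE 0.03, adjusted p = 0.000165). The 3 that fell were Nupr1 (-0.33), Ddit4 (-0.29) and Cebpb (-0.18), named after their values were seen.

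Regulators of the IRE1 and ATF6 branches had 6 of 13 genes higher and 2 lower in Dble::R6/2 against Hdac4HET, and 6 higher and 1 lower in R6/2 against WT. Rtcb, the ligase that joins the exons of Xbp1 after IRE1 has cut it, rose by 0.13 (SE 0.02, adjusted p = 6.18e-06). Creb3l2, an ER-bound transcription factor cut like ATF6, rose by 0.27 (SE 0.05, adjusted p = 6.09e-05). Atf6b, the paralogue of Atf6, fell by 0.09 and the kinase gene Mapk8 by 0.08, and in R6/2 against WT Map3k5 fell by 0.17, all named after their values were seen.

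Of the genes linked to Wolfram syndrome and ER calcium, 6 of 8 were measured, and 2 rose and 3 fell in each comparison. Atp2a2, the calcium pump SERCA2, ran from 12.89 to 13.06 in Hdac4HET and 12.64 to 12.76 in Dble::R6/2 cortex, without overlap, and fell by 0.27 (SE 0.02, adjusted p = 1.59e-11). It also fell by 0.27 in R6/2 against WT. Stim1, the ER calcium sensor, rose by 0.09 (SE 0.04, adjusted p = 0.0405), and by 0.27 in R6/2 against WT. Named after their values were seen, Cisd2, the other Wolfram syndrome gene, rose by 0.21 (adjusted p = 2.07e-07), the ER cation channel gene Tmem38a fell by 0.15 (adjusted p = 0.000301) and the sodium pump subunit gene Atp1b1 fell by 0.05 (adjusted p = 0.0428).

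**Figure D5:**
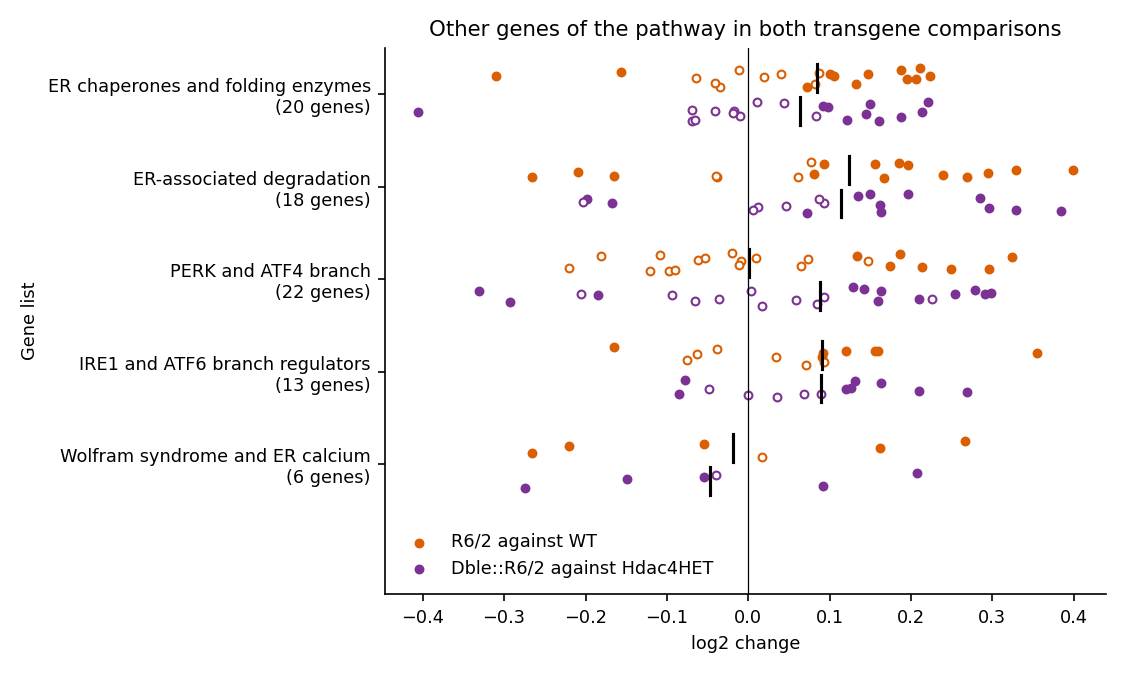
Log2 change (horizontal axis) of each of the 79 measured genes of the 5 lists in R6/2 against WT and in Dble::R6/2 against Hdac4HET. Filled points had an adjusted p under 0.05, open points did not, and black bars are medians. Most filled points lie right of 0 in the first 4 lists, at changes of up to 0.40.

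The genes of the 79 that passed with reduced Hdac4 were named after their values were seen. In Hdac4HET against WT, 1 passed, beside 1.84% of all genes. It was Atf6b, with a rise of 0.13 (adjusted p = 0.0345). In Dble::R6/2 against R6/2, 4 passed, beside 1.96% of all genes. Of these 3 rose, Edem2 by 0.23 (adjusted p = 0.0136), the amino acid transporter subunit gene Slc3a2 by 0.14 (adjusted p = 0.017) and Creb3 by 0.14 (adjusted p = 0.0235). The cystine transporter gene Slc7a11 fell by 0.38 (adjusted p = 0.0285), past 1.3-fold. The interaction passed for 1 gene, Edem2, at 0.28 (adjusted p = 0.0452), beside 1.04% of all genes. The Hdac4HET arrays used here include 6 with raised bulb markers, and the values of these genes without them are not given.

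Genes with an ERSE in their promoter were counted as a list set by sequence alone. Of the 37 such genes over the genome 20 were measured, Hspa5 and Hsp90b1 among them. In Dble::R6/2 against Hdac4HET 5 rose and 2 fell, beside 28.4% and 14.1% of all genes, with a median change of 0.04 beside 0.04. Since members are among the 20, R6/2 against WT is given as a description, with a median difference of 0.04 beside 0.00 over all genes. Those that rose in Dble::R6/2 against Hdac4HET were Acacb by 0.23, Adcy3 by 0.17, the ubiquitin ligase gene Syvn1 by 0.14, Canx, which encodes the lectin chaperone calnexin, by 0.10, and the oxidase gene Ero1b by 0.09. Derl3 fell by 0.20 and Tdrd9 by 0.17. Calr, which encodes the lectin chaperone calreticulin and also has the element, had a change of -0.01 (adjusted p = 0.886).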

How the data were processed

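Cortex RNA of 37 mice was run on Affymetrix arrays, 1 per mouse. Genotype, replicate and sex come from the sample labels. The authors deposited log2 expression values, 1 column for each array. They checked the arrays with RACE and excluded those of low quality, and for the genotypes other than R6/2 the methods give fewer mice than the arrays used here. The summarisation of probes and the normalization between arrays are not stated in the labels or methods, and the values were used unaltered. Of the probe sets, 34945 had 1 symbol in the platform annotation, 932 several and 9160 none, and a probe set with several named no gene.

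A linear model of the 4 genotypes was fitted over all 45037 probe sets with limma 3.58.1 (lmFit, eBayes with trend) in R 4.3.3. P values were adjusted over all of them by Benjamini-Hochberg, and every adjusted p comes from this model unless another test is named. The thresholds were 0.05 and, for size, 1.3-fold. The fit was tested on simulated data. Tables and figures were made with Python 3.11.15, pandas 2.3.3, scipy 1.17.1 and matplotlib 3.10.9. The number of arrays limits the precision. Whether mice shared a litter is not given in the labels.

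The 10 genes and the lists were chosen with earlier results of these data known. Named pathway genes were those past both thresholds in a transgene comparison, up to 4 per list, or else the 2 with the lowest p. The genes most like Wfs1 were the 5 with the highest r. Promoters came from RefSeq on GRCm38.p6. The alternatives tried were quantile normalization, dim probe sets left out, a fit of just the compared genotypes, the methods' t-test, a sex covariate, a replicate block, array weights, eBayes with no trend, the arrays set apart left out, and single arrays left out in turn.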

Additional observations from a re-analysis of the deposited data

How the results depend on the processing

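Most values kept their direction and side of the threshold under the alternatives, which were 11 besides leaving out single arrays. In Dble::R6/2 against R6/2 the count of member probe sets past the threshold, 0, became 1 with only the genotypes compared, in the methods' t-test and with array quality weights, each time the second probe set of Hspa5. For the interaction it became 1 with dim probe sets left out and with array quality weights, each time Eif2ak3. The pathway count in Dble::R6/2 against Hdac4HET, 47, became 29 without the arrays with raised bulb markers and 28 without both sets, where 3 Hdac4HET arrays remain, and this second choice was made after the data were seen.

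Without single arrays, the count past the threshold ran from 0 to 1 in Dble::R6/2 against R6/2, where Hdac4HET mouse 2 left out gave 1, and from 0 to 1 for the interaction. In R6/2 against WT, with no test, 14 of the 28 member differences were below 0, and 8 of 21 with dim probe sets left out, where fewer are read. Dimmer probe sets of a gene could point the other way. In R6/2 against WT, Eif2ak3 had -0.0793 and -0.0050, Ern1 -0.0308, -0.0474 and -0.176, Hspa5 -0.0386, Hsp90b1 -0.32 beside 0.07 on the brighter and Atf4 -0.07 beside 0.05, and in Dble::R6/2 against Hdac4HET, Ern1 had -0.0202 and -0.0601 and Atf4 -0.03 beside 0.10. Of these differences, only that of Ern1 at -0.176 and that of Hsp90b1 at -0.32 had a 95% confidence interval that left out 0. The cause was not tested.

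Arrays with the same replicate number showed little likeness, which does not tell whether mice shared a litter. Over 54 pairs of arrays with the same number, deviations from the genotype means correlated at a median of 0.00881 (-0.268 to 0.217), with 14 above 0.1. With the replicate block, 11 member probe sets passed in Dble::R6/2 against Hdac4HET and 0 in each comparison of reduced Hdac4, as without it, and the pathway counts were 44 there and 46 in R6/2 against WT. A signal under the 25th percentile of all values (4.47 on the log2 scale), as for 4 of the 28 member probe sets, limits what a change there can show.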
